A study of Mus musculus with 5 samples.

Results

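The ventral pancreatic bud of the mouse embryo at stage E10.5 (days of embryonic development) was set against the foregut from which it derives, as sampled at E8.5 in 1 library of foregut and 1 library of medial foregut. All 3 tissues came from C57BL/6J embryos and no allele, transgene or treatment is named for any of them. The labels do not say how medial foregut was separated from foregut, whether embryos were pooled, or how the bud was isolated. Levels are FPKM, the fragments mapped to a transcript scaled by its length and by the total mapped fragments of the library. Of 14053 loci in the table, 12375 carried a gene name, and 10724 of these stood on the same side of both E8.5 libraries, 6521 above both and 4203 below both. The other 1651 did not. The same series holds liver and dorsal pancreas at E10.5, 1 library each, whose values are given for orientation.

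The ventral pancreas arises from ventral foregut endoderm, beside the endoderm that forms the liver and the bile duct and close to the heart. Pdx1 and Ptf1a mark the endoderm committed to pancreas, and from this epithelium come duct, enzyme-secreting acinar and hormone-producing endocrine cells. The earliest endocrine cells of the mouse bud produce glucagon. Foregut endoderm at the earlier stage expresses general endodermal factors such as Foxa2 and has not yet formed a bud.

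With 1 library per tissue there was no replicate error to set a difference against, and no test was possible. Differences are given on the log2(FPKM + 1) scale, ventral pancreas minus each E8.5 library, and they understate the change of genes with low levels. A gene is called higher or lower here when both differences reached 2, that is 4 times in FPKM + 1, and the higher library held at least 5 FPKM (for lower genes, both E8.5 libraries). By this rule 242 named loci were higher in ventral pancreas, 1.96% of those compared, and 185 were lower, 1.49%. Against medial foregut alone, leaving foregut out, the lower count was 280. The smaller of a gene's 2 differences ran from 2.00 to 8.27 among higher genes, with a median of 2.63, and from -2.01 to -10.26 among lower genes, with a median of -2.84. Between the 2 E8.5 libraries themselves 6 loci passed the same rule, 0.0485%. Over all named loci the median difference was 0.11 against foregut and 0.12 against medial foregut, and scaling the libraries to a common median ratio lowered them by 0.12 and 0.13, to -0.01 each. Gene lists are described by their counts and medians beside these values for all loci. They and the genes named from them were chosen with earlier results of these data known, and a further set of list members, given with the processing, was picked after their values were seen.

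**Figure D1:**
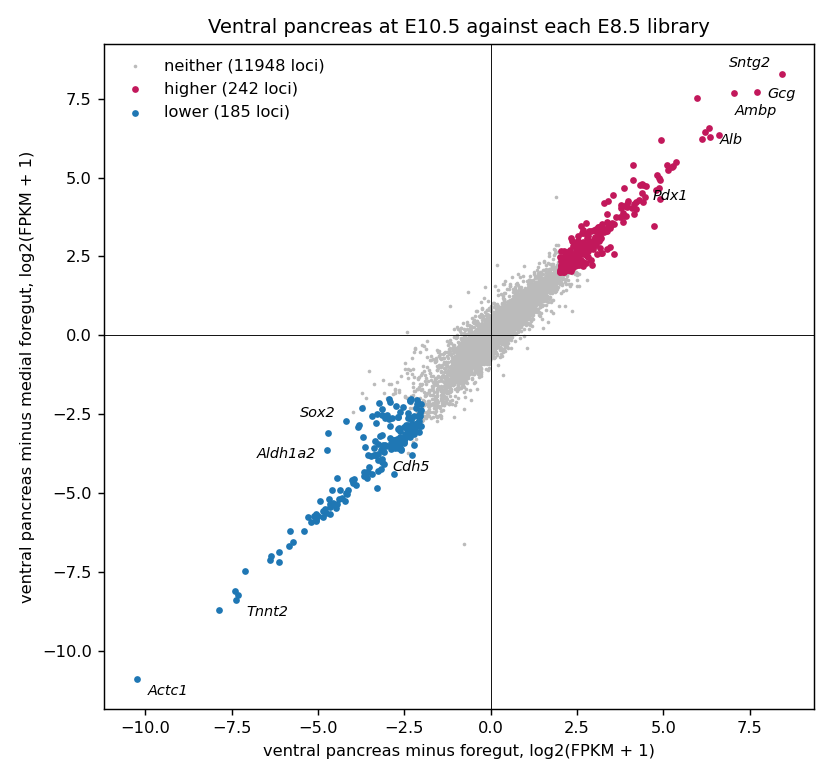
Each point is 1 named locus, with ventral pancreas minus foregut on the x axis and ventral pancreas minus medial foregut on the y axis, both as log2(FPKM + 1). The 242 higher loci (red) and 185 lower loci (blue) lie along the diagonal, from Actc1 at -10.26 to Sntg2 at 8.27 by the smaller difference.

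Promoters of 4 genes that were far higher in the ventral bud, 3 hepatic and 1 endocrine, are shown because the hepatic and endocrine results below turn on these genes. The 250 bases before the start are printed 5′ to 3′ on the gene's strand, from RefSeq on GRCm38.p6. Capitals mark a match on either strand to the motif GTTAAT, the forkhead motif TGTTTAC, the GATA motif AGATAA or the TATA box TATAAA.
Alb, serum albumin, chr5:90460620-90460869, plus strand: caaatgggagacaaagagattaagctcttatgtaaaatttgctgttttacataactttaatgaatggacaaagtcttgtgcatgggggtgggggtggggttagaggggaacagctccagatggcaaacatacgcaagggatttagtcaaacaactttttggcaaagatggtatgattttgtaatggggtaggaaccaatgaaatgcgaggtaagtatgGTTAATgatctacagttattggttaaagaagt
Fga, fibrinogen alpha chain, chr3:83025903-83026152, plus strand: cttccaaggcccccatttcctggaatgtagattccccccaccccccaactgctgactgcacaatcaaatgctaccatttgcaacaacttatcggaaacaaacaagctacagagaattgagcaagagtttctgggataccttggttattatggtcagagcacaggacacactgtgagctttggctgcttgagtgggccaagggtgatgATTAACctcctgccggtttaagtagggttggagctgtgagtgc
Apoa2, apolipoprotein A-II, chr1:171224804-171225053, plus strand: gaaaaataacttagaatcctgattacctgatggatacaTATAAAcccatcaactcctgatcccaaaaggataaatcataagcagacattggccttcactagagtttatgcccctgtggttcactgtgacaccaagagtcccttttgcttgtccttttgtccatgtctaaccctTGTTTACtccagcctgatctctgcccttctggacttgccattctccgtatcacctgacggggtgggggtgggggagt
Gcg, glucagon, chr2:62483654-62483903, minus strand: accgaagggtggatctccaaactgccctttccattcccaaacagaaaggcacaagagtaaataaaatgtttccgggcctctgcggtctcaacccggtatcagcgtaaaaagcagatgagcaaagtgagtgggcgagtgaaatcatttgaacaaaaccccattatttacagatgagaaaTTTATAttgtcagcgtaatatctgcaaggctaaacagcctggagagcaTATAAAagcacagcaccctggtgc
GTTAAT starts 32 bases before the start of Alb and, as its reverse complement ATTAAC, 43 bases before that of Fga. Apoa2 holds the forkhead motif 77 bases and a TATA box 212 bases before its start, and Gcg holds a TATA box 24 bases before its start and its reverse complement at 72. A RefSeq window of 300 bases, from 250 before to 50 after the start, was at hand for 9160 named loci. GTTAAT was present in 4.24% of these, in 13.0% (23 of 177) of the windows of higher genes and in 6.50% (8 of 123) of those of lower genes. Among the 14 higher hepatic secreted genes with a window it was in 5, namely Alb, F2, Fga, Vtn and Fgb. TGTTTAC was present in 2.50% of all windows, 5.65% of those of higher genes and 1.63% of those of lower genes. AGATAA was in 10.7% of the windows of higher and 13.0% of those of lower genes, against 6.35% of all, and TATAAA was in 14.1% and 15.4%, against 6.94%. A match to so short a motif is a description of the letters and not a bound site.

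Before the results, the makeup of the libraries needs stating. The number of named loci at 1 FPKM or more ran from 10266 (liver) to 11165 (ventral pancreas), and the depth in reads is unknown. Across named loci, Spearman's rho was 0.883 between ventral pancreas and foregut, 0.871 with medial foregut and 0.987 between foregut and medial foregut; genes are not independent replicates. Both E8.5 libraries held endodermal genes such as Foxa2 and Hhex together with abundant heart muscle transcripts. The 19 cardiomyocyte markers found summed to 5789 FPKM in foregut, 9999 in medial foregut, 39.9 in ventral pancreas, 41.4 in dorsal pancreas and 545 in liver. The 18 neural tube markers also had higher medians at E8.5. In bulk tissue, fewer cells of a type and less RNA per cell cannot be told apart, and the part that other cell types played in the differences below was not tested.

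**Figure D2:**
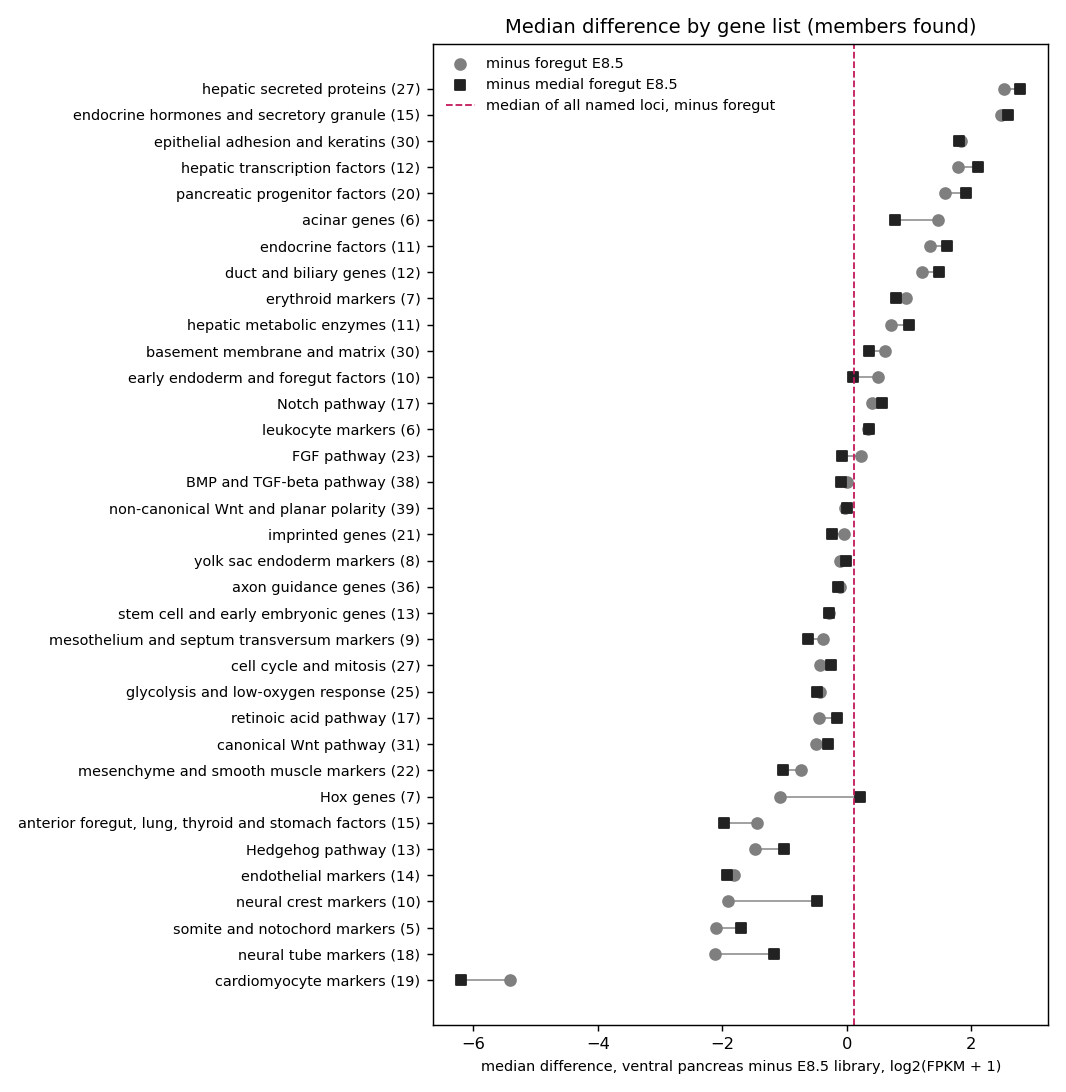
Median difference of the members found of each gene list with at least 5 such members (number in parentheses), ventral pancreas minus foregut (circles) and minus medial foregut (squares), in log2(FPKM + 1). Hepatic secreted proteins stand highest at 2.53 and 2.79 and cardiomyocyte markers lowest at -5.41 and -6.20. The dashed line is the median of all named loci, 0.11.

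Transcription factors of the pancreatic progenitor were prominent on the higher side. Of 20 factors found among 22 listed, 6 were higher and none lower, 13 stood above both E8.5 libraries and 3 below both, and the list's medians were 1.58 and 1.91 beside 0.11 and 0.12 for all loci. Against medial foregut alone, without the foregut library, 10 were higher and 1 lower, and under median ratios 1 was lower. Pdx1, the homeodomain factor without which no pancreas forms (mm9 chromosome 5, 148081169 to 148092911), stood at 0.945 FPKM in foregut, 0.444 in medial foregut and 39.2 in ventral pancreas, with 40.9 in dorsal pancreas and 0.0313 in liver. Both pancreatic libraries were thus far above the other 3, and the ventral differences were 4.37 and 4.80. Ptf1a, which directs cells to pancreas and later to the acinar lineage, was listed at 0 in medial foregut and liver and stood at 0.0443 FPKM in foregut, 7.55 in ventral pancreas and 8.32 in dorsal pancreas.

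Onecut1 (also called Hnf6), a factor upstream of endocrine and biliary development, stood at 4.45 and 2.12 FPKM at E8.5 and 78.0 in ventral pancreas. That was above the 18.3 FPKM of dorsal pancreas and the 11.9 of liver. Nr5a2, a nuclear receptor of pancreas and liver, stood at 1.65, 0.531 and 45.1 FPKM in foregut, medial foregut and ventral pancreas, against 17.1 in dorsal pancreas and 22.7 in liver. Mnx1, a homeodomain factor needed for the dorsal bud, was higher too, at 0.921, 0.577 and 11.0 FPKM, with 19.1 in dorsal pancreas. Onecut2, the last of the 6, stood at 1.80, 0.878 and 16.7 FPKM, over a locus that covers under 30% of the annotated gene.

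Several factors central to the progenitor stood above both E8.5 libraries without reaching the size rule. Sox9, which maintains the progenitor pool, stood at 9.17 and 4.21 FPKM at E8.5 and 37.0 in ventral pancreas, with differences of 1.90 and 2.87. Foxa2, a pioneer factor of endoderm, was already at 18.2 and 12.4 FPKM at E8.5 and stood at 45.7 in ventral pancreas. Hhex, a homeobox gene of ventral endoderm required for the ventral bud, stood at 45.7 FPKM in foregut, 58.5 in medial foregut, 133 in ventral pancreas and 10.6 in dorsal pancreas. Its ventral level was the highest of the 5 libraries and its dorsal level the lowest.

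Not every progenitor factor was higher. Nkx6-1 stood at 7.98 FPKM in foregut, 1.78 in medial foregut and 7.05 in ventral pancreas, so its direction differed between the 2 E8.5 libraries. Gata4, a zinc finger factor of endoderm and heart, stood at 46.6 and 78.0 FPKM at E8.5 and 11.2 in ventral pancreas, with differences of -1.96 and -2.69 that missed the size rule against foregut. Its relative Gata6 stood at 25.7, 41.1 and 33.6 FPKM, between the E8.5 libraries.

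Several endocrine genes that were near or at 0 in the E8.5 libraries were present in the ventral bud. Gcg, encoding glucagon (chromosome 2, 62312638 to 62321998 in mm9), was listed at 0 in both E8.5 libraries and stood at 208 FPKM in ventral pancreas, 1349 in dorsal pancreas and 0.00929 in liver. Of 15 genes found among 28 for hormones and secretory granules, 8 were higher, all 15 stood above both E8.5 libraries, and the medians were 2.48 and 2.58. Not all were low at E8.5, since Pyy, encoding the hormone peptide YY, stood at 47.6 FPKM in foregut, 103 in medial foregut and 167 in ventral pancreas. Slc38a5, an amino acid transporter, stood at 1.23, 0.910 and 165 FPKM in foregut, medial foregut and ventral pancreas, and 886 in dorsal pancreas. Chgb, a granule protein, stood at 0.252, 0.260 and 23.6 FPKM, and the prohormone convertase gene Pcsk2 at 0.145, 0.0903 and 5.94.

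The subunits of the ATP-sensitive potassium channel of endocrine cells are encoded side by side on chromosome 7, and both genes were higher. Abcc8, the sulfonylurea receptor, stood at 1.28, 1.52 and 18.9 FPKM in foregut, medial foregut and ventral pancreas. Its neighbour Kcnj11, the pore subunit, stood at 1.04, 1.27 and 12.6 FPKM. Kcnk16, another potassium channel gene, stood at 4.71, 2.15 and 33.8 FPKM. Every one of the 8 higher genes stood higher still in the dorsal library. Ins1, encoding insulin, was listed at 0 in foregut, medial foregut and liver, and stood at 1.62 FPKM in ventral pancreas and 16.4 in dorsal pancreas.

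Among 11 endocrine transcription factors found of 13 listed, Neurod1 and Insm1 were higher, none was lower (1 without medial foregut) and 9 stood above both E8.5 libraries. Neurod1, which drives endocrine differentiation, was listed at 0 in medial foregut and liver and stood at 0.0856 FPKM in foregut, 6.74 in ventral pancreas and 19.3 in dorsal pancreas. Insm1, a zinc finger factor acting after Neurog3, stood at 0.766, 0.138 and 7.99 FPKM in foregut, medial foregut and ventral pancreas. Neurog3 itself, the factor that commits progenitors to the endocrine lineage, stood at 0.0623 and 0.0449 FPKM at E8.5, 2.74 in ventral pancreas and 7.86 in the dorsal bud, below the minimum of 5 FPKM. St18 was listed at 0 in both E8.5 libraries and liver, and stood at 3.11 FPKM in ventral pancreas. Pax6, a factor of islet cells and also of the neural tube, lay the other way, at 42.6 and 20.0 FPKM at E8.5 and 7.24 in ventral pancreas.

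**Figure D3:**
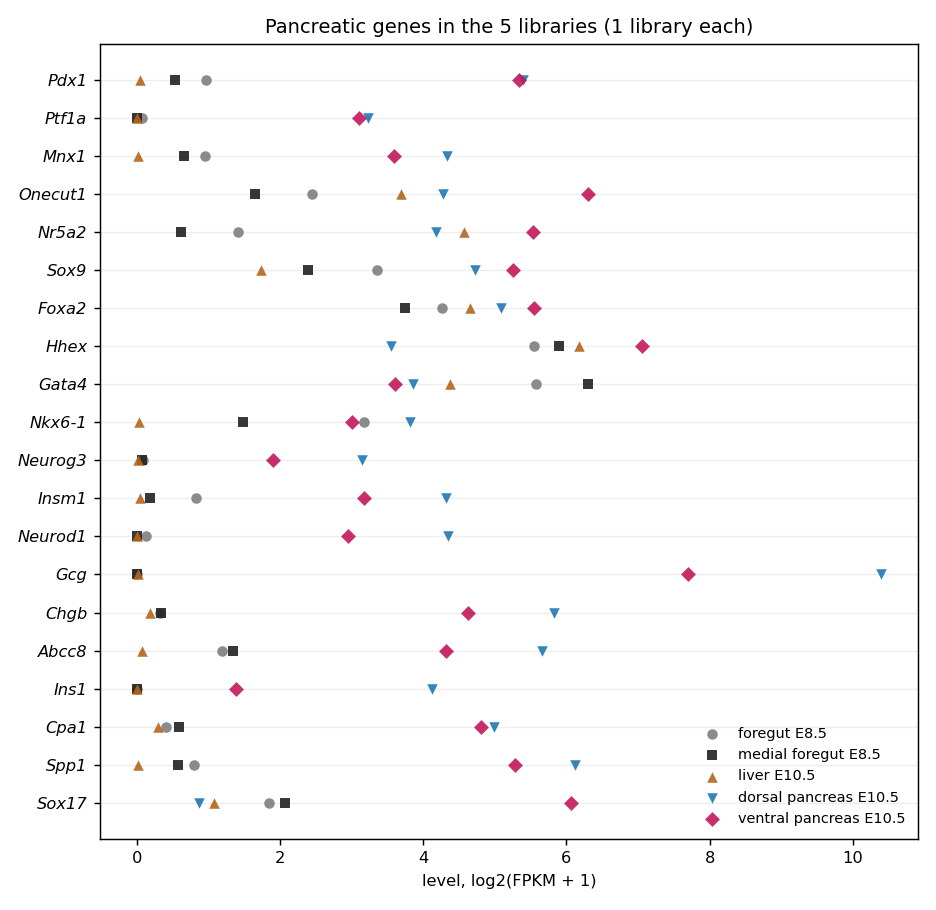
Levels of 20 pancreatic genes in the 5 libraries, 1 symbol per library, on the log2(FPKM + 1) scale. Pdx1, Ptf1a, Gcg and Cpa1 separate both pancreatic libraries from the other 3, while Sox17 and Onecut1 are highest in ventral pancreas and Gata4 is highest in medial foregut.

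Acinar and duct genes were represented by few members. Of 18 acinar genes listed 6 were found, and Cpa1, a carboxypeptidase present in early multipotent tip cells, stood at 0.328, 0.493 and 27.0 FPKM in foregut, medial foregut and ventral pancreas, with 30.7 in dorsal pancreas. Spink3, a trypsin inhibitor gene that early gut endoderm also expresses, was lower at 68.8, 137 and 15.5 FPKM. The elastase gene Cela1 stood at 3.09 FPKM in ventral pancreas, from 0.208 and 0.169.

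Of 12 duct and biliary genes found, Spp1, Sox17 and Anxa4 were higher and Car2 was lower. Sox17, an endodermal factor that marks the gallbladder and bile duct primordium beside the ventral bud, stood at 2.58 FPKM in foregut, 3.20 in medial foregut, 65.9 in ventral pancreas, 0.821 in dorsal pancreas and 1.10 in liver. The ventral library alone held it at a high level. Spp1, osteopontin, stood at 0.732, 0.484 and 38.0 FPKM in foregut, medial foregut and ventral pancreas, and at 68.2 in dorsal pancreas. The annexin gene Anxa4 stood at 4.17, 3.91 and 38.1 FPKM. Car2, carbonic anhydrase II, stood at 25.2 and 25.4 FPKM at E8.5 and 1.57 in ventral pancreas, while Krt19 did not differ by more than 0.23.

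Genes of the liver lineage formed the largest higher group among the lists. Of 27 hepatic secreted protein genes found among 38 listed, 17 were higher in ventral pancreas than in both E8.5 libraries and all 27 stood above both, with medians of 2.53 and 2.79. Alb (mm9 chromosome 5, 90889928 to 90905626) stood at 0.226 and 0.0231 FPKM at E8.5, 97.0 in ventral pancreas, 1.497 in dorsal pancreas and 1051 in liver. Apoa2 stood at 1.44, 1.29, 170, 1.79 and 1618 FPKM in foregut, medial foregut, ventral pancreas, dorsal pancreas and liver. Both genes were thus far higher in the ventral than in the dorsal bud, and higher still in liver. Ambp, which encodes the plasma protein precursor of alpha-1-microglobulin and bikunin, stood at 3.61, 2.01, 612, 188 and 898 FPKM in that order and was the highest of the 27 by its difference, 7.05. Serpina6, corticosteroid-binding globulin, stood at 0.146, 0.0910, 43.5, 6.39 and 603 FPKM, and Trf, transferrin, at 2.38, 1.73, 115, 27.2 and 1244.

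The 3 fibrinogen genes lie together on chromosome 3 and all were higher. Fga stood at 0.473 and 0.753 FPKM at E8.5 and 20.1 in ventral pancreas, Fgg at 2.29, 1.84 and 49.3, and Fgb at 15.6, 11.1 and 94.8. As a percentage of the liver level, the 17 higher genes stood between 7.22% and 68.1% in ventral pancreas, with a median of 12.1%. Of these, 14 lay under 25%, Alb at 9.23% and Apoa2 at 10.52%. The other 3 were Serpinf1 at 47.8%, Vtn (vitronectin) at 64.7% and Ambp at 68.1%. These 3 were also high in dorsal pancreas, at 14.1%, 30.6% and 20.9% of liver, where Alb stood at 0.142%.

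**Figure D4:**
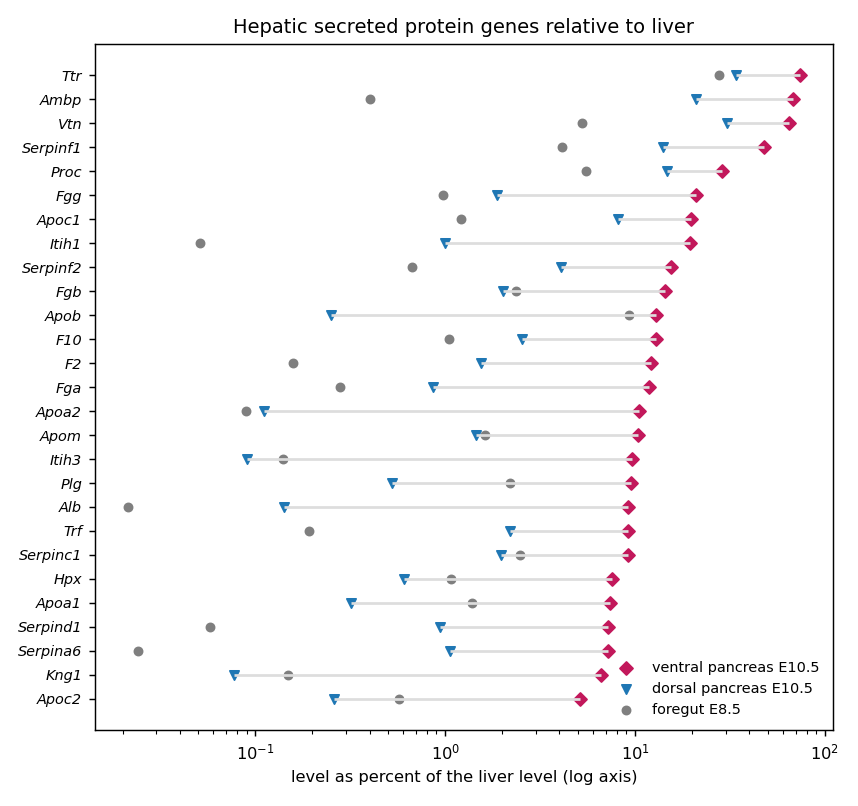
Level of each of 27 hepatic secreted protein genes as a percentage of its level in the liver library (log axis), in ventral pancreas, dorsal pancreas and foregut. In ventral pancreas 22 of the 27 lie under 25%, Alb and Apoa2 among them, whereas Ambp, Vtn, Serpinf1 and Ttr lie above 40%; Ttr, on the other strand than annotated, was not called and is highest at 73.5%.

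Of 12 hepatic transcription factors found, 5 were higher, none lower and 11 stood above both E8.5 libraries. Onecut1 and Nr5a2 belong to this list too. Hnf4a, the nuclear receptor that directs hepatocyte differentiation, stood at 3.30, 2.30, 31.3, 13.0 and 158 FPKM in foregut, medial foregut, ventral pancreas, dorsal pancreas and liver. Cebpa, a leucine zipper factor of hepatocytes, stood at 0.282, 0.111, 18.04, 2.82 and 47.3 FPKM, and Lhx2 at 1.20, 0.844, 8.65, 0.284 and 7.75. Foxa3 stood at 14.7 FPKM in ventral pancreas from 3.14 and 2.38, just under the size rule against foregut. Of 11 hepatic enzyme genes found, 4 were higher. The aldehyde dehydrogenase gene Aldh1b1 stood at 24.4 FPKM in ventral pancreas, 35.3 in dorsal pancreas and 22.0 in liver, against 0.504 and 0.548 at E8.5. The urea cycle gene Ass1 reached 7.89 FPKM in ventral pancreas, and Bhmt, on a locus under 30% of its annotated span, 31.9.

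The summed level of red cell markers was highest in the ventral library through 2 genes, and its part in the differences was not tested. The 7 erythroid markers found summed to 10.6 FPKM in foregut, 13.2 in medial foregut, 147 in ventral pancreas, 32.8 in dorsal pancreas and 26.9 in liver. Hbb-y, an embryonic beta-globin, stood at 1.73, 1.495, 111, 24.4 and 22.0 FPKM and Slc4a1, the red cell anion exchanger (a locus under 30% of its span), at 0.101, 1.70, 28.5, 1.56 and 0.205, and these 2 were the higher members. The list's median level was 1.73 FPKM in foregut, 1.70 in medial foregut and 1.68 in ventral pancreas. Tal1, a factor of blood and vessel progenitors, stood at 4.06, 4.61 and 0.176 FPKM, the membrane skeleton gene Ank1 at 2.42, 2.90 and 0.975, and the red cell factor Klf1 at 0.390, 0.539 and 1.68. Of 6 leukocyte markers found none was called, with C1qb, C1qc and Cx3cr1 listed at 0 at E8.5 and at 1.59, 0.278 and 0.245 FPKM in ventral pancreas. The Cx3cr1 locus covers under 30% of its annotated span. Of 8 yolk sac endoderm markers, Slc2a2 and Fgb were higher and Gata5 lower. Leaving out the 3 hepatic lists and the erythroid list, a choice made after seeing the data, 214 of the 242 higher loci remained. That count only drops listed genes and does not measure the part of any tissue.

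Epithelial genes mostly stood above their E8.5 level, and 10 of them were called higher. Of 30 genes of epithelial adhesion and keratins found among 32, 10 were higher, none lower, and 26 stood above both E8.5 libraries, with medians of 1.83 and 1.81. Under median ratios 7 were higher. Epcam, the epithelial adhesion molecule, stood at 45.6 FPKM in foregut, 46.5 in medial foregut, 343 in ventral pancreas, 163 in dorsal pancreas and 28.4 in liver. Cdh1, E-cadherin, stood at 18.5, 20.2, 87.0, 64.3 and 13.99 FPKM in the same order. In both genes the E8.5 libraries lay close together and both pancreatic libraries stood above them. Rhov, a small GTPase gene, stood at 0.0408, 0.0365 and 18.2 FPKM in foregut, medial foregut and ventral pancreas. The tight junction genes Cldn3, Cldn7, Marveld3 and Ocln stood at 29.4, 31.0, 10.52 and 21.1 FPKM in ventral pancreas, from at most 5.46 at E8.5. The polarity gene Crb3 and the splicing factors Esrp1 and Esrp2 were also higher. Keratins went otherwise, with Krt8 at 263 and 389 FPKM at E8.5 and 225 in ventral pancreas and Krt18 at 270.3, 424 and 239.

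Of the 242 higher loci, ventral pancreas held the highest level of the 5 libraries in 121, and 20 stood at least 2 above each other E10.5 library as well. The 242 were picked for a high ventral level, and neither count was made over all named loci. Sntg2, encoding syntrophin gamma 2, was the most extreme, with 414 FPKM in ventral pancreas against 0.193 in foregut, 0.341 in medial foregut, 0.203 in liver and 0.916 in dorsal pancreas. Hgf, hepatocyte growth factor, stood at 84.6 FPKM in ventral pancreas, 0.0522 and 0.109 at E8.5, 1.17 in liver and 0.816 in dorsal pancreas. Myo15, an unconventional myosin gene, stood at 113 FPKM against at most 0.601 elsewhere, over a locus of 1.86% of the annotated span. Sox17, Onecut1, Hbb-y and Slc4a1 are among the 20. Of these, Onecut1 and Hbb-y were also present in the other E10.5 libraries, at 18.3 and 24.4 FPKM in dorsal pancreas and 11.9 and 22.0 in liver. The ventral value of each of the 20 rests on 1 library, and no second ventral library was at hand to check it.

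Early endoderm genes split. Of 10 found among 16, Nepn and Sox17 were higher and Foxh1 lower, and without foregut 2 were lower. Nepn, encoding the matrix protein nephrocan of gut endoderm, stood at 3.08 FPKM in foregut, 0.387 in medial foregut, 254 in ventral pancreas and 602 in dorsal pancreas. Foxh1, a transcriptional partner of Nodal signalling, stood at 27.7 and 56.6 FPKM at E8.5 and 0.132 in ventral pancreas. Tdgf1, the Nodal coreceptor Cripto, stood at 9.22, 29.1 and 0.0424 FPKM, and Lefty2, a Nodal antagonist, at 5.90 and 20.3 FPKM at E8.5 while listed at 0 in ventral pancreas. These 3 were lower in the other E10.5 libraries too, all at or under 0.125 FPKM. Otx2, an anterior factor, was listed at 0 in all 3 E10.5 libraries and stood at 1.09 and 5.00 FPKM at E8.5.

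Factors of anterior foregut, lung, thyroid and stomach stood lower. Of 15 found among 22 listed, 5 were lower, none higher and 12 below both E8.5 libraries, with medians of -1.45 and -1.98. Sox2, the factor of anterior foregut and also of neural tissue, stood at 38.9 FPKM in foregut, 13.4 in medial foregut and 1.19 in ventral pancreas. Its locus is far wider than the annotated gene, at 5728% of the span. Tbx1, a pharyngeal factor, stood at 6.89, 8.96 and 0.0378 FPKM, Irx5 at 8.96, 8.62 and 0.306, and Tbx2 at 9.34, 16.5 and 0.948. Nkx2-5, which serves heart and pharyngeal endoderm, stood at 10.3, 20.7 and 0.0358 FPKM. Of 7 Hox genes found among 27, Hoxb1 was lower at 9.03, 8.34 and 0.549 FPKM, as was the Hoxb3 locus, which lies on the other strand than annotated, at 22.8, 23.0 and 1.61. Both Hox loci stood in dorsal pancreas near or above their E8.5 level, at 14.9 and 24.9 FPKM.

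Heart muscle genes made up the strongest lower group. Of 19 cardiomyocyte markers found among 23, 18 were lower and all 19 stood below both E8.5 libraries, with medians of -5.41 and -6.20. Actc1, cardiac alpha-actin (mm9 chromosome 2, 113873014 to 113878836), stood at 1487 FPKM in foregut, 2297 in medial foregut, 0.217 in ventral pancreas, 0.752 in dorsal pancreas and 77.9 in liver. Tnnt2, cardiac troponin T, stood at 875, 1764, 4.23, 0.388 and 102 FPKM in that order, and the atrial light chain gene Myl7 at 1049, 1959, 5.56, 8.55 and 93.9. Myh6 and Myh7, the cardiac myosin heavy chains that neighbour each other on chromosome 14, stood at 188 and 486 FPKM in foregut and at 0.362 and 7.75 in ventral pancreas. Myl2 was listed at 0 in both pancreatic libraries. The one marker not called was Hand2, a locus on the other strand than annotated, at 9.58, 22.0 and 2.92 FPKM.

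The medial foregut library held more of these transcripts than the foregut library, with a median excess of 0.81 among the 19 markers. The same order ran through the lower genes in general. Of the 185 lower loci, 155 (83.8%) stood higher in medial foregut than in foregut, against 49.4% of all named loci and 40.5% of the higher ones. Without the marker lists of other cell types, a choice made after seeing the data, 150 of the 185 remained. The part of heart tissue in the other lower genes was not tested, and its marker levels at E8.5 stand beside every one of them.

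Blood vessel markers set the ventral bud apart from the other E10.5 tissues as well. Of 14 endothelial markers found among 18, 6 were lower and 12 below both E8.5 libraries, with medians of -1.82 and -1.92. Their summed level was 163 FPKM in foregut, 209 in medial foregut, 63.1 in ventral pancreas, 94.4 in dorsal pancreas and 170.1 in liver. Cdh5, VE-cadherin, stood at 20.2, 27.8, 1.37, 10.7 and 15.8 FPKM in that order, Kdr, the receptor VEGFR2, at 21.6, 28.1, 1.58, 9.62 and 13.6, and Eng, endoglin, at 15.9, 22.2, 0.865, 6.81 and 14.97. In these 3 genes ventral pancreas was the lowest of the 5 libraries. Tek, Tie1 and Plvap were the other lower members. Flt1, which encodes VEGFR1, went against the rest at 7.51, 10.1, 14.3, 2.17 and 2.86 FPKM, and Egfl7 stood at 32.2 FPKM in ventral pancreas from 40.4 and 45.1. In the whole table, 6 lower genes were also at least 2 below each other E10.5 library. Of these, Plvap, Kdr, Cdh5 and Eng are in this list, and the others were Aplnr (on the other strand than annotated) and Mef2c. The 6 were picked from loci already lower in ventral pancreas, and the same count over all named loci was not made.

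**Figure D5:**
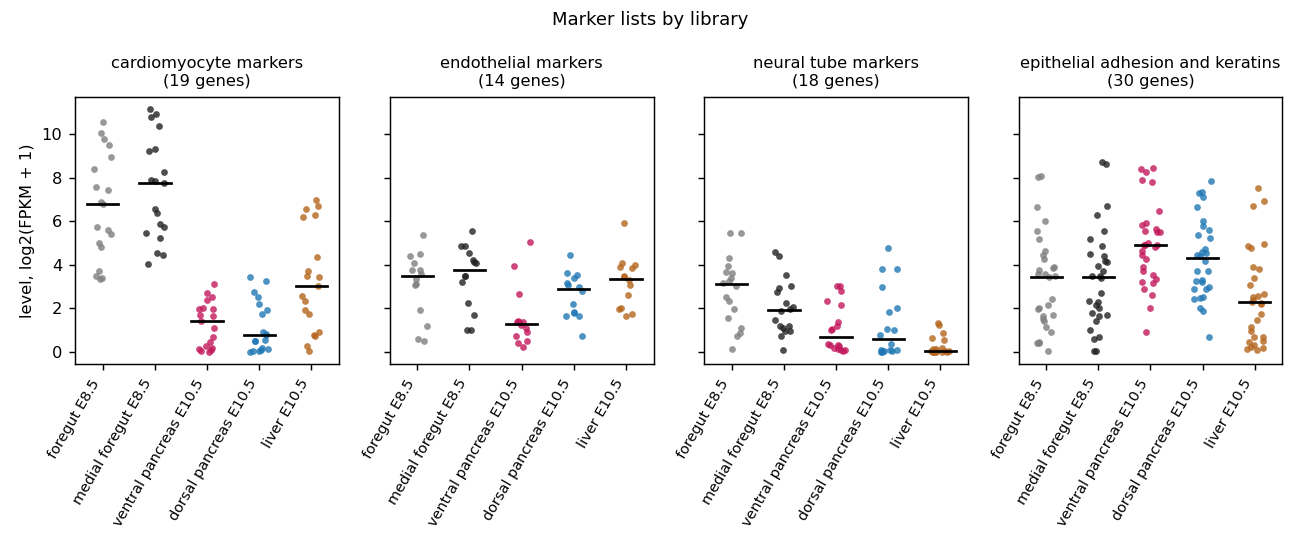
Levels of cardiomyocyte, endothelial, neural tube and epithelial markers in each library, 1 point per gene with the list median as a bar, on the log2(FPKM + 1) scale. Cardiomyocyte markers are high only in the E8.5 libraries and intermediate in liver, endothelial markers are lowest in ventral pancreas, and epithelial genes are highest in ventral pancreas.

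Mesenchymal genes moved in both directions. Of 22 mesenchyme and smooth muscle markers found among 24, 5 were lower (Acta2, Cnn1, Tagln, Pdgfra and Twist1) and 2 were higher (Col3a1 and Postn). Acta2, smooth muscle actin, which the early heart also expresses, stood at 635 and 1042 FPKM at E8.5 and 2.78 in ventral pancreas. Pdgfra, a receptor of mesenchymal cells, stood at 24.2 and 41.7 FPKM at E8.5, 3.48 in ventral pancreas and 35.0 in dorsal pancreas. Col3a1, a fibrillar collagen, stood at 2.18 and 2.78 FPKM at E8.5, 24.0 in ventral pancreas, 62.3 in dorsal pancreas and 34.3 in liver. Barx1 and Nkx3-2, factors of gut mesenchyme, were at 0.360 and 0.0497 FPKM in ventral pancreas, against 89.3 and 9.57 in dorsal pancreas. Of 9 mesothelium and septum transversum markers found, Gata5 and Podxl were lower, and Wt1 stood at 1.41 FPKM in ventral pancreas and 6.397 in liver.

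Neural genes stood lower, and the count depended on the E8.5 library. Of 18 neural tube markers found among 28, Sox1, Zic2 and Stmn2 were lower against both libraries and 14 stood below both, with medians of -2.12 and -1.18. Against foregut alone, leaving out medial foregut, 8 were lower. Sox1, a factor of neural progenitors, stood at 14.6 FPKM in foregut, 7.04 in medial foregut and 0.113 in ventral pancreas. Pax3 stood at 11.8, 3.11 and 0.0405 FPKM. Of 10 neural crest markers found, Twist1 was lower and without the medial foregut library 3 were. Sox10 stood at 8.10 FPKM in foregut but 0.560 in medial foregut and 0.679 in ventral pancreas. Of 5 somite and notochord markers found, Foxc2 was lower, and without medial foregut 3 were.

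Most Hedgehog signalling genes stood below their E8.5 level. In this pathway the ligand Shh binds Ptch1, which frees Smo to activate the Gli factors, and exclusion of Shh from prospective pancreas is a known feature of bud formation. Of 13 genes found among 15, Gli1, Gli2 and Boc were lower and 12 stood below both E8.5 libraries, with medians of -1.47 and -1.02. Shh stood at 10.2 FPKM in foregut, 7.35 in medial foregut, 3.14 in ventral pancreas, 0.417 in dorsal pancreas and 0.00678 in liver. Ptch1, receptor and target, stood at 75.4, 52.1, 19.9, 21.4 and 15.2 FPKM. Gli1, the factor most directly induced by the pathway, stood at 22.8, 15.1, 1.36, 13.9 and 0.996 FPKM, so its dorsal level remained near that of E8.5. Gli2 stood at 13.0, 10.4, 0.823, 15.4 and 1.09 FPKM. The signal transducer Smo stood at 71.7 and 61.4 FPKM at E8.5 and 58.0 in ventral pancreas. The exception was Ihh, at 1.329, 1.11 and 1.36 FPKM, which stands below foregut once libraries are rescaled by median ratios.

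The listed retinoic acid genes that were called were those of synthesis and binding. Of 17 found among 21, Aldh1a2, Crabp1 and Crabp2 were lower and none was higher (1 without medial foregut). Aldh1a2, the main retinoic acid synthesising enzyme of the early embryo, stood at 35.4 FPKM in foregut, 15.96 in medial foregut, 0.353 in ventral pancreas, 1.16 in dorsal pancreas and 2.51 in liver. The cellular retinoic acid binding protein genes Crabp1 and Crabp2 stood at 457 and 360 FPKM in foregut, 325 and 134 in medial foregut and 68.1 and 26.1 in ventral pancreas. The receptor gene Rarb stood at 23.0, 20.8 and 12.9 FPKM. Loci of joined names took no part in the lists. Among them the joined locus of the degrading enzymes Cyp26a1 and Cyp26c1 was lower too, with its values given at the end.

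FGF signalling genes had no common direction, with 10 above and 10 below both E8.5 libraries. Of 23 genes found among 27, Etv4 was higher, and Fgf15 and Fgf13 were lower. Against medial foregut alone, without foregut, 2 were higher and 4 lower. Etv4, an ETS factor induced by FGF, stood at 4.41, 7.75, 39.98 and 69.0 FPKM in foregut, medial foregut, ventral pancreas and dorsal pancreas. Fgf8 stood at 4.67 and 13.2 FPKM at E8.5 and 0.0745 in ventral pancreas, and missed the call through the minimum of 5 FPKM. Among receptors, Fgfr4 stood at 14.9, 9.29 and 49.3 FPKM and Fgfr1 at 47.8, 50.1 and 26.6. Fgf10, a mesenchymal ligand that sustains progenitors, stood at 0.740 FPKM in ventral pancreas and 15.5 in the dorsal bud, over a partial locus.

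In the BMP and TGF-beta pathway 6 of 38 genes found were lower and none was higher. As a list these genes had no common direction, with 14 above and 17 below both E8.5 libraries and medians of 0.00 and -0.10. With a pseudocount of 5 FPKM none was lower. The ligands Bmp2, Bmp5 and Tgfb2 stood at 14.7, 12.2 and 15.4 FPKM in foregut, 28.1, 23.3 and 27.4 in medial foregut, and 1.73, 0.499 and 2.30 in ventral pancreas. Bmper, Lefty2 and the BMP-responsive factor Msx1 were the others. Bmp4, a liver-inducing ligand, stood at 10.04, 20.8 and 7.76 FPKM. The receptors Bmpr1a and Tgfbr1 stood at 38.9 and 40.2 FPKM in ventral pancreas, within 0.16 of both E8.5 libraries.

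Wnt genes of both branches were examined because the series title names a non-canonical Wnt signature. Of 31 canonical pathway genes found, Wnt7b was higher and Wnt2 and Lef1 were lower, and 4 were lower without medial foregut. Wnt7b, an epithelial ligand, stood at 0.0458 FPKM in foregut, 0.105 in medial foregut, 10.55 in ventral pancreas, 6.32 in dorsal pancreas and 0.0196 in liver. Wnt2, a mesodermal ligand, stood at 15.99, 26.7, 0.0789, 0.00611 and 2.60 FPKM. Lef1, a transcriptional effector and target, stood at 17.9, 24.3, 0.829, 10.2 and 1.38 FPKM. Secreted inhibitors stood lower without reaching the rule against both libraries, Sfrp1 at 69.1, 52.1 and 13.1 FPKM and Frzb at 10.9, 16.8 and 2.02. Median-ratio rescaling brought the lower count to 4. Ctnnb1, beta-catenin itself, stood at 348, 322 and 389 FPKM.

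Of 39 non-canonical Wnt and planar polarity genes found, none was higher and 2 were lower, and the medians were -0.04 and 0.00 beside 0.11 and 0.12 for all loci. Wnt11, a non-canonical ligand on a locus under 30% of its span, stood at 5.03, 10.47 and 0.296 FPKM in foregut, medial foregut and ventral pancreas. Prickle1, a planar polarity protein, stood at 12.7, 17.8 and 2.17 FPKM. Wnt5a, the best known non-canonical ligand, stood at 7.62, 12.8, 1.53, 1.20 and 0.582 FPKM in foregut, medial foregut, ventral pancreas, dorsal pancreas and liver. Among receptors and polarity components, Ror2 stood at 20.2, 18.4 and 20.1 FPKM, Ptk7 at 41.9, 44.4 and 47.5 and Vangl2 at 29.7, 20.5 and 16.6. By number, 15 members stood above both E8.5 libraries and 17 below both, and after median-ratio rescaling 10 and 23.

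No Notch gene was called among 17 found, and 1 was lower when either E8.5 library was left out. Notch1 stood at 13.1, 8.69 and 29.5 FPKM in foregut, medial foregut and ventral pancreas, and the ligand genes Dll1 and Jag1 at 20.7 and 6.83 FPKM in ventral pancreas from 13.0 and 17.0 in foregut. Hey2, a target that heart expresses, stood at 4.39, 8.46 and 0.0943 FPKM. No axon guidance gene was called among 36 found, but 1 was higher and 3 lower without foregut, 2 were lower without medial foregut and 2 under median ratios. By number, 15 of the axon guidance genes stood above both E8.5 libraries and 17 below both. Ntn1, netrin 1, stood at 13.8, 4.46 and 0.153 FPKM, and Sema3c went the other way at 8.38, 5.50 and 26.2.

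Glucose transporter genes went in opposite directions. Slc2a2, the low-affinity transporter GLUT2 of beta cells and hepatocytes, stood at 0.0538 FPKM in foregut, 0.00791 in medial foregut, 39.3 in ventral pancreas, 4.41 in dorsal pancreas and 20.6 in liver. Slc2a1 and Slc2a3, the high-affinity transporters GLUT1 and GLUT3, stood at 251 and 337 FPKM in foregut, 205 and 433 in medial foregut and 50.04 and 67.8 in ventral pancreas. The Slc2a1 difference of -2.01 against medial foregut lies at the edge of the rule. Of the other glycolysis and low-oxygen response genes, of which 25 were found in all, Ndrg1 was higher at 1.31, 1.87 and 39.9 FPKM. Ldha, lactate dehydrogenase A, stood at 1101, 1093 and 783 FPKM and Hk2, hexokinase 2, at 64.7, 61.5 and 26.04.

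Cell cycle genes differed little. None of 27 was called (1 was higher without foregut), 20 stood below both E8.5 libraries, and the medians were -0.43 and -0.25. Cdk1 stood at 92.2, 94.99 and 66.1 FPKM in foregut, medial foregut and ventral pancreas. Ccnd1, cyclin D1, went against the rest at 29.6, 22.0 and 98.1 FPKM, as did the inhibitor gene Cdkn1a at 6.16, 5.51 and 21.1. Of 13 stem cell and early embryonic genes found, Tdgf1 was lower, and 2 were when either E8.5 library was left out. Lin28b, which represses let-7 microRNAs, stood at 27.3, 19.1 and 5.84 FPKM and Pou5f1, encoding Oct4, at 5.39, 8.55 and 1.77.

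Among 21 imprinted genes found, Dlk1 was higher and Phlda2 lower, and without medial foregut 2 were higher. Dlk1, a paternally expressed Notch ligand homologue of fetal liver and pancreas, stood at 57.4 FPKM in foregut, 66.7 in medial foregut, 1718 in ventral pancreas, 485 in dorsal pancreas and 2377 in liver. Phlda2 stood at 47.2, 113, 9.25, 0.726 and 5.56 FPKM in the same order. Igf2, at 448, 759 and 876 FPKM in foregut, medial foregut and ventral pancreas, and H19, at 1499, 2492 and 2760.5, were close to their medial foregut level. Downstream of Dlk1 on chromosome 12 lie 2 further higher loci, chosen here after their values were seen, the first within 100 kb of Dlk1 and the other within 100 kb of the first. The joined locus of Meg3, Mir337 and Mir493 stood at 109.9, 117 and 585 FPKM and Rian, another maternally expressed non-coding RNA, at 56.8, 63.7 and 272.

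Of 30 matrix and basement membrane genes found, Frem2, Col3a1 and Postn were higher and Nid2 and Lama4 were lower. Frem2, a basement membrane protein of epithelia, stood at 7.54, 8.35 and 55.1 FPKM in foregut, medial foregut and ventral pancreas. Nid2, nidogen 2, stood at 77.6, 105 and 8.42 FPKM, and Lama4, a laminin chain of vessel walls, at 8.33, 13.1 and 0.909. The basement membrane collagen genes Col4a1 and Col4a2 stood at 152 and 68.2 FPKM in ventral pancreas from 67.4 and 36.0 in foregut. No intestinal or stomach epithelial gene was called among 3 found (1 was lower without medial foregut), with Cdx2 at 1.08, 0.456 and 2.52 FPKM.

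Some called genes were neighbours. Groups with less than 100 kb between successive called genes, already named above, are the fibrinogen genes, Kcnj11 with Abcc8, Dlk1 with its neighbours and Myh6 with Myh7. Others were Serpinf1 with Serpinf2 on chromosome 11, the Serpina genes around Serpina6 on chromosome 12, Ambp with Kif12 and Col27a1, and, among lower genes, Tnni1 with Tnnt2. Neighbours that share a promoter region, a duplicated origin or an overlapping transcript are not separate observations.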

How the data were processed

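Poly(A) RNA of 5 C57BL/6J mouse tissues was sequenced in paired-end libraries, 1 per tissue. The authors deposited 1 table of FPKM values per locus, with coordinates on mm9, per the file headers and the submitters' processing notes, which name TopHat 1.33 and Cufflinks 1.3.0 without their order. Whether starts count from 0 or 1 is not stated in the labels or headers used here. FPKM values were used as deposited, with a pseudocount of 1 before log2. Loci with a gene name (12375) were compared; 731 carry several joined names. Ventral pancreas was compared with foregut and medial foregut, and a locus was called at a difference of at least 2 against both and a minimum of 5 FPKM. A locus covering under 30% of its annotated gene span, or on the other strand, is marked where named. Loci wider than the annotated gene are in general not marked. Examples are Cldn3, Sox9 and Foxh1, at 3364%, 2236% and 1557% of the annotated span, and Apoa2 and Sox17, at 669% and 533%. Whether such a locus also counts other transcripts was not tested. The members, lists and naming rule were chosen with earlier results of these data known. The rule names the 15 highest and 15 lowest called genes, the 4 members of every list that differ most, at most, and a set of genes always reported. Named outside it, after their values were seen, were Fga, F2, Vtn, Mnx1, Onecut2, Gata6, Pcsk2, Pyy, Kcnj11, Kcnk16, Pax6, Krt19, Fgg, Serpinf1, Serpinf2, Ttr, Lhx2, Klf1, Cldn7, Ocln, Crb3, Esrp1, Esrp2, Krt8, Krt18, Tbx2, Myl2, Hand2, Tie1, Plvap, Flt1, Egfl7, Aplnr, Mef2c, Pdgfra, Barx1, Nkx3-2, Wt1, Sox10, Smo, Ihh, Rarb, Fgfr4, Fgfr1, Fgf10, Bmp2, Tgfb2, Bmp4, Bmpr1a, Tgfbr1, Sfrp1, Ctnnb1, Ror2, Ptk7, Vangl2, Notch1, Dll1, Ldha, Hk2, Cdk1, Rian, Lama4, Col4a1, Col4a2, Kif12 and Col27a1. Alternatives were other pseudocounts, thresholds, minimums and scalings, and leaving out either E8.5 library. Calculations used Python 3.11.15, pandas 2.3.3 and numpy 2.4.6, and figures matplotlib 3.10.9. The calling code was run on simulated data with small noise, where changes well beyond the rule were planted in loci well above the minimum. That run checked the code and says nothing of how precise these libraries are. Some list members are not reported here.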

Additional observations from a re-analysis of the deposited data

Results flagged for a closer look

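Loci without a gene name took no part in the comparisons above, and 11 of them were higher in ventral pancreas by the same rule and 1 was lower. The most extreme, on mm9 chromosome 2 from 147769734 to 147866104, stood at 1.15 FPKM in foregut, 0.820 in medial foregut, 370 in ventral pancreas, 2.29 in dorsal pancreas and 1.08 in liver. It ends 2516 bases from Foxa2, the nearest named locus. Another, on chromosome 9 from 74695118 to 74702977, stood at 0.483 and 0.208 FPKM at E8.5, 143 in ventral pancreas, 22.2 in dorsal pancreas and 5.53 in liver, and lies 6742 bases from Onecut1, which was itself higher. The lower locus, on chromosome 7 from 51728810 to 51741018, stood at 99.8 and 195 FPKM at E8.5 and 0.354 in ventral pancreas.

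Esrp1, an epithelial splicing regulator, was higher in ventral pancreas by 2.14 and lower in liver by the same rule, against the same E8.5 libraries. It stood at 10.2 FPKM in foregut, 12.1 in medial foregut, 56.6 in ventral pancreas and 1.77 in liver. The difference between these 2 comparisons was not tested.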

How the results depend on the processing

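With 1 library per tissue there is no replicate error, and depth in reads is unknown, so low FPKM values have no stated precision. No paired analysis was possible because each tissue has a single library. A pseudocount of 5 FPKM left 75 higher and 74 lower loci, beside 242 and 185. A difference of at least 1 gave 789 and 410, and one of at least 3 gave 80 and 85. Scaling each library to a total of 1000000 gave 387 higher loci and 265 lower. That scaling multiplied foregut, medial foregut and ventral pancreas by 2.19, 1.97 and 2.11, while the pseudocount and the minimum stayed as they were. Its counts therefore mix the change between libraries with a smaller relative pseudocount and minimum. Leaving out 1 E8.5 library in turn gave 283 to 297 higher and 235 to 280 lower, with 280 without foregut; the cause was not tested beyond the rule having 1 library fewer to pass. The counts stayed within 1.5 times under a pseudocount of 0.1 (340 and 244), median ratios (212 and 206, with 50.7% of called loci higher against 56.7%), no minimum (258 and 201), a minimum of 10 FPKM (175 and 142) and over loci with 1 name, a strand and a span of at least 1000 bases (225 and 176). Under median ratios 7 epithelial genes were higher, not 10, and under a total of 1000000 there were 14. The sign of a list's median turned under a rescaling for early endoderm and yolk sac genes and non-canonical Wnt genes against medial foregut, and for BMP and TGF-beta genes against foregut. Of 104 called genes that the naming rule gives, 53 lost the call under at least 1 alternative and 2 under either rescaling. None of these 104 changed direction, and a change of direction was not counted for the uncalled named genes.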

Other observations

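The genes of this section were picked for their size after their values were seen, and nothing is said by them of the groups they belong to. Among them were 3 MHC class II genes. Of 15 leukocyte markers listed only 6 were found, of which none was called, 5 stood above both E8.5 libraries and 1 below both. Which cells carried the class II transcripts was not tested. Cd74, the invariant chain of MHC class II, stood at 0.347 FPKM in foregut, 1.71 in medial foregut, 15.1 in ventral pancreas, 7.69 in dorsal pancreas and 0.278 in liver. The neighbouring class II genes H2-Aa and H2-Eb1 on chromosome 17 stood at 8.29 and 13.1 FPKM in ventral pancreas, from 0.0892 and 1.19 in foregut and 0.565 and 2.06 in medial foregut.

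Other called loci that no list counted were these, and loci of joined names took no part in the lists. Onecut3, the relative of Onecut1, stood at 0.195 and 0.0948 FPKM at E8.5, 24.1 in ventral pancreas, 6.31 in dorsal pancreas and 13.995 in liver. The joined locus of Nkx2-2 and Nkx2-2as, where an islet factor overlaps its antisense RNA, stood at 1.38, 0.274, 22.1, 42.0 and 0 FPKM in foregut, medial foregut, ventral pancreas, dorsal pancreas and liver. Sct, encoding the hormone secretin, stood at 0.569, 1.21, 10.7, 23.8 and 3.38 FPKM in that order. Cited1, a transcriptional coactivator gene, stood at 8.53, 13.3, 283, 51.6 and 179 FPKM, so the ventral level was the highest of the 5. The joined locus of the retinoic acid degrading enzymes Cyp26a1 and Cyp26c1 was lower, at 13.0 and 12.1 FPKM at E8.5 and 0.119 in ventral pancreas.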
